A study of Mus musculus with 6 samples.

Results

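This account concerns 9 complement genes in mouse white fat, C1qa, C1qb, C1qc, C3, C4b, Cfd, Cfb, C3ar1 and C5ar1. They were chosen by name as the rows of the gene list whose symbol matched, and all 9 were found among the 56980 genes listed. The study used single-nucleus RNA sequencing (snRNA-seq) of inguinal subcutaneous (SAT) and gonadal visceral (VAT) adipose tissue from female C57BL/6J mice, with unique molecular identifier (UMI) counts per nucleus. Analysed here were 6 libraries, 2 of young SAT (2 months), 2 of old SAT (24 months) and 2 of old VAT (24 months). No group carried a transgene or treatment, and VAT at 2 months was not analysed here. For the old mice the age is printed as in the labels, while the series text and the study's methods state a slightly higher one. The study took both depots from 2 mice per age, so the SAT and VAT libraries of the older age may come from the same mice, and nothing in the labels ties a SAT library to a VAT library. The labels call the cells adipocytes, but the libraries hold nuclei of the whole tissue, and only some of these nuclei carried adipocyte markers.

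Complement is a cascade of blood and tissue proteins that tags microbes, dead cells and debris. The classical route starts with C1q, built from the chains A, B and C, and passes through C4; the alternative route uses factor B and factor D. The routes meet at C3, whose cleavage products coat targets and signal through receptors. Fat is a known source of complement, since factor D, also called adipsin, was described as a serine protease made by adipocytes.

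After filtering, 27074 nuclei remained, from 2490 to 5776 per library, and the deposited libraries held 8061862 to 16226690 UMIs each. The median nucleus of a library had 1380 to 1878 UMIs. Any 2 libraries shared 5 to 19 nucleus barcodes, at most 0.482% of the smaller library. Classes were rebuilt by clustering with the 9 genes and the other complement genes left out, and named from marker lists, so a class level is a description and not a test. Levels are given as UMIs per 1000000 UMIs (CPM) of the summed nuclei of a class in a library, and only where the library had at least 20 nuclei of the class. Since transcripts of different length are not counted alike, levels of the 9 genes were compared between classes and libraries, not with one another. Sums of different marker lists are set side by side below as descriptions. A ratio of Cfd to Adipoq is compared between classes and libraries. Certain libraries stood apart. VAT replicate 2 held 160 adipocyte nuclei against 2863 in VAT replicate 1, had the highest median mitochondrial share (5.07%), and contributed to clusters named ovary or oviduct or led by genes such as Ovgp1 and Cyp11a1. SAT at 2 months was rich in lymphocytes, with 2217 and 3381 T and B cell nuclei against 656 and 260 at 24 months. Differences between depots are therefore also given without VAT replicate 2. In SAT the median mitochondrial share also differed between the ages, at 1.72% and 0.918% at 2 months and 3.49% and 2.91% at 24 months.

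The C1q genes encode the 3 chains of the recognition molecule of the classical route. They lie side by side on the minus strand of chromosome 4 (GRCm39), C1qb at chr4:136606009-136613511, C1qc at chr4:136616466-136620376 and C1qa at chr4:136623223-136626161, within 20153 bases. An annotated long noncoding RNA on the opposite strand overlaps C1qb and C1qc, and the counting was not stated to use strand. The 250 bases before the annotated starts of C1qb (chr4:136886201-136886450, minus strand) and C1qc (chr4:136892915-136893164, minus strand), from RefSeq on GRCm38.p6, are printed 5′ to 3′ on the gene's strand because the chains were detected together in the same nuclei. Of the 9 genes, 6 had a promoter in the table used, and C1qa, C4b and Cfb did not. Capitals mark GAGGAA on either strand, the core of the site bound by the myeloid factor PU.1:
C1qb: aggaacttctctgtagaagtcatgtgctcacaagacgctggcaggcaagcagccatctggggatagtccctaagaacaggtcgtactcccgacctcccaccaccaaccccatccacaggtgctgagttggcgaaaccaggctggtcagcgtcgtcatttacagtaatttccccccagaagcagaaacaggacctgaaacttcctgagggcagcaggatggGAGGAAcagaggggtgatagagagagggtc
C1qc: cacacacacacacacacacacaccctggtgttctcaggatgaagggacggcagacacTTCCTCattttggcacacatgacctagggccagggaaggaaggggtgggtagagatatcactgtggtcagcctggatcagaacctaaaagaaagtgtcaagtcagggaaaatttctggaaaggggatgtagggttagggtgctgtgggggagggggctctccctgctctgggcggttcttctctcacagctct
These letters stood 30 to 25 bases before the start of C1qb, and on the opposite strand 193 to 188 bases before that of C1qc. They occurred in 2 of the 6 promoters, and in 23.4% of 32536 promoters of the same length, so the match is a description only.

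C1q transcripts were found mostly in macrophages. The macrophages of young SAT had C1qb at 1077 and 833 CPM, those of old SAT at 472 and 1600 CPM, and those of VAT at 1113 and 464 CPM. The groups overlapped, and the replicates of old SAT lay on either side of both young libraries. C1qa stood at 1782 and 1351 CPM, 652 and 1809 CPM, and 1316 and 928 CPM in the same order. C1qc stood at 1478 and 1126 CPM, 689 and 1926 CPM, and 1495 and 513 CPM. For every chain the older SAT replicate 1, with 77 macrophage nuclei, was below both young libraries, whereas the older SAT replicate 2, with 246, was above them. Macrophages made up 3.09% to 5.22% of the nuclei and gave 66.0% to 82.7% of the C1qa UMIs of a library. A further unnamed cluster of 74 nuclei, led by Retnla, Mrc1, F13a1 and the C1q genes, was kept out of the class. In T cells, which are not known to make C1q, C1qb stood at 6.24 to 13.7 CPM.

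The chains appeared together in single nuclei. At least 1 chain was detected in 54.3% to 84.6% of the macrophages of a library, and all 3 chains in 18.6% to 55.7%. In T cells at least 1 chain was detected in 1.67% to 4.97% of nuclei, and all 3 in at most 0.0656%. With each nucleus thinned to 1000 UMIs, C1qb was detected in 29.9% to 65.0% of macrophages and 0.418% to 1.10% of T cells. The median depth was 1376 to 1652 UMIs in macrophages and 1249 to 1510 UMIs in T cells.

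Within macrophages the chains were highest in the resident type, named from markers such as Mrc1, F13a1 and Lyve1. C1qb stood there at 3175 and 3131 CPM in SAT at 2 months, at 3316 CPM in the 1 older SAT library with enough nuclei, and at 1926 CPM in VAT replicate 1. All 3 chains were detected in 75.0% to 96.7% of these nuclei, which numbered 27 to 63 per library. The lipid-associated type, marked by genes such as Gpnmb, Spp1 and Trem2, had enough nuclei only in 3 libraries of the older age, with C1qb at 385 to 950 CPM. The remaining nuclei of the class stood at 433 to 1158 CPM, overlapping with the lipid-associated type, and both stayed below every resident value. They are a mixed set and no type, with a sub-cluster of 195 nuclei led by genes such as Adam23, Flt3, Bcl11a and Napsa and another of 102 nuclei led by genes such as Ighm, Ghr, Cidec and Nnat. A further sub-cluster, of 194 nuclei, was nearest to the resident list, with 3 of its markers above 2-fold. It stayed unnamed at a mean log2 fold of 0.48 where 0.5 was required, so resident-like nuclei are in this set.

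**Figure D1:**
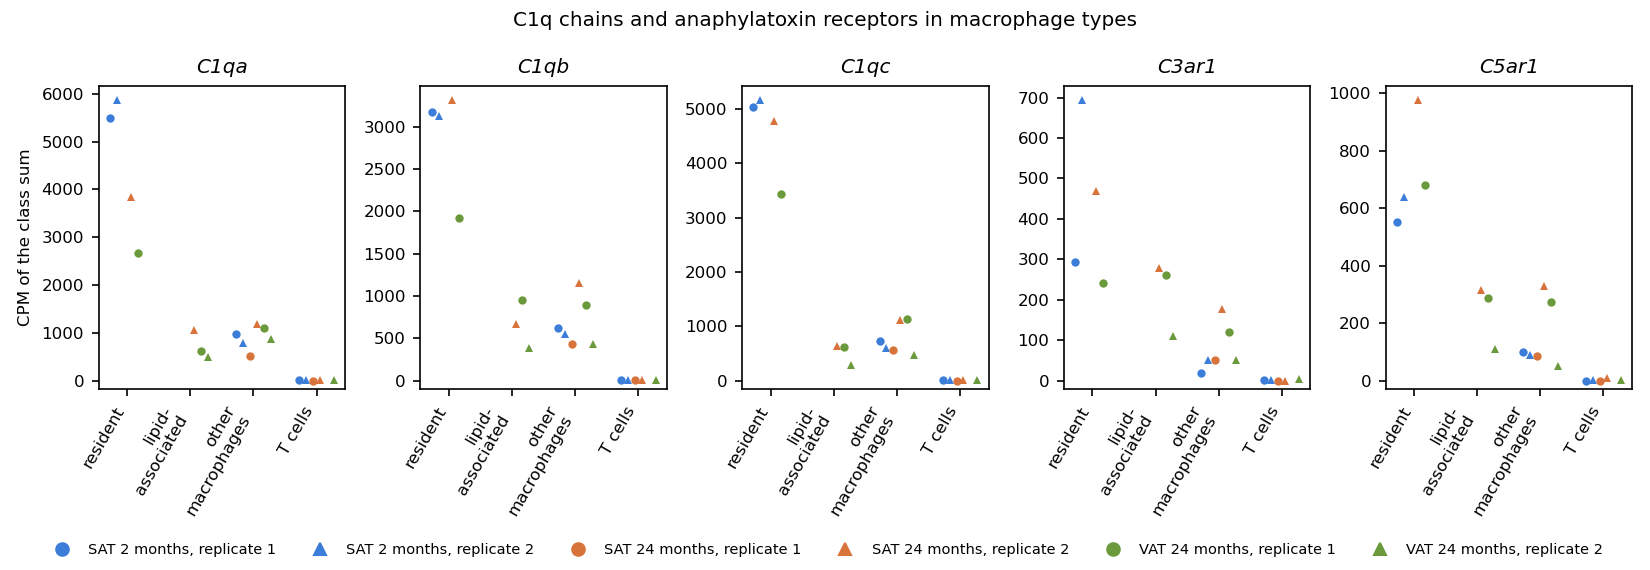
CPM (vertical axes, linear, 1 scale per gene) of C1qa, C1qb, C1qc, C3ar1 and C5ar1 in resident and lipid-associated macrophages, in the other nuclei of the macrophage class, a mixed set, and in T cells, 1 point per library with at least 20 nuclei of the type, coloured by group and shaped by replicate. For the C1q chains and C5ar1 every resident value lies above the values of the other types, whereas C3ar1 overlaps with the lipid-associated type, and T cells lie near 0.

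C3ar1 and C5ar1 encode the receptors for the anaphylatoxins C3a and C5a, which draw and activate myeloid cells. C3ar1 (chr6:122823393-122833122, GRCm39) and C5ar1 (chr7:15980668-15993465) also had their highest level in macrophages in 6 of 6 libraries. C5ar1 stood in macrophages at 176 and 154 CPM in young SAT, 112 and 485 CPM in old SAT, and 360 and 79.6 CPM in VAT. C3ar1 stood at 82.0 and 127 CPM, 67.4 and 267 CPM, and 174 and 68.6 CPM. As for C1q, the older SAT replicates lay on either side of the young ones, and the groups overlapped. In resident macrophages C5ar1 stood at 552 to 976 CPM and C3ar1 at 241 to 694 CPM, against at most 10.8 and 5.00 CPM in T cells. Across 74 profiles of separate cell types in single libraries, C3ar1 and C5ar1 had a Pearson r of 0.96 on the log2(CPM + 10) scale, and each had an r of 0.92 to 0.93 with the C1q chains. The profiles share 6 libraries, so this is a description.

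**Figure D2:**
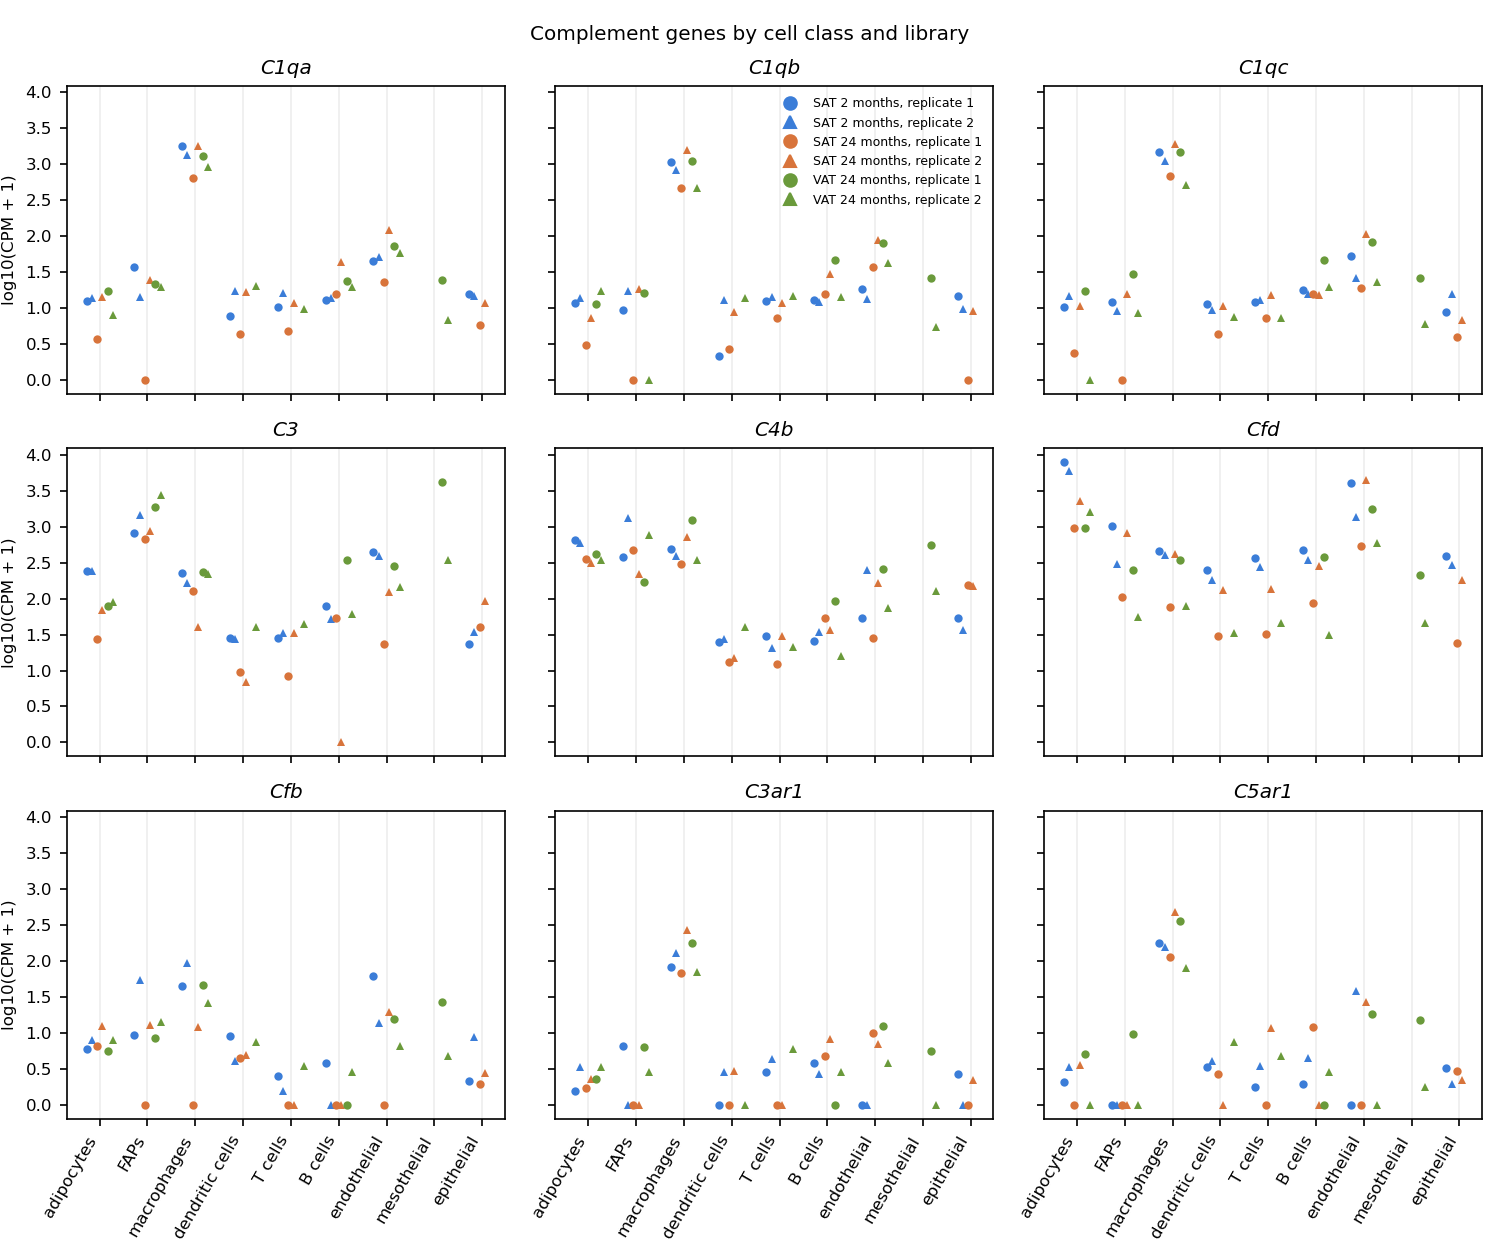
Level of each complement gene, as log10(CPM + 1) on the vertical axes, in 9 cell classes, 1 point per library with at least 20 nuclei of the class, coloured by group and shaped by replicate. The C1q chains and both receptors peak in macrophages, C3 in FAPs and in 1 mesothelial library, and Cfd in adipocytes and endothelial nuclei, whereas C4b is spread over adipocytes, FAPs and macrophages.

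C3 encodes the central protein on which all routes converge. It lies at chr17:57510964-57535155 on the minus strand, overlapped on the opposite strand by an annotated long noncoding RNA and on its own strand by Mir6978. Among the named classes it was highest in fibro-adipogenic progenitors (FAPs), the stromal cells that include preadipocytes, in 5 of 6 libraries, and in mesothelial nuclei, the lining of the visceral cavity, in the other. In FAPs, C3 stood at 804 and 1453 CPM in young SAT, 683 and 862 CPM in old SAT, and 1867 and 2771 CPM in VAT. The young and old SAT libraries overlapped, whereas both VAT libraries lay above all 4 SAT libraries. The 9 mesothelial markers summed in FAPs to 224 and 1983 CPM in VAT against 11.8 to 72.2 CPM in SAT. The FAP markers summed to 4470 CPM in VAT replicate 2, which had the highest C3, against 22841 to 39296 CPM in the other libraries. The part of mesothelial RNA in the C3 of FAPs was not tested. Among FAPs, the progenitors marked by Dpp4 and Pi16 held 1329 to 3720 CPM over 5 libraries, and the preadipocytes marked by Col15a1 held 345 to 1474 CPM over 6. In each of the 5 libraries with both types the Dpp4 type had the higher value. Mesothelial nuclei passed the marker check only in VAT, with C3 at 4203 CPM in 229 nuclei of replicate 1 and 343 CPM in 1675 nuclei of replicate 2. They held 38.2% and 33.7% of all C3 UMIs there, and FAPs held 36.8% and 36.3%. A cluster of 56 nuclei named mesothelial was led by genes such as Sfrp4, Cyp11a1 and Hsd3b1. Its next best list was ovary or oviduct, so the mesothelial class may hold other nuclei. The FAP class of VAT replicate 2 is less certain, since it held 318 nuclei, against 38 when the nuclei were clustered with no batch correction. A sub-cluster of FAPs, of 344 nuclei over all libraries, was led by genes that include Gas6, Cilp and the mesothelial markers Upk3b and Gpm6a. In T cells C3 stood at 7.49 to 43.7 CPM.

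C4b encodes the complement C4 that carries the classical route on to C3. It lies at chr17:34947354-34962912 on the minus strand, 65156 bases from C4a, its near copy. The longest coding transcripts were 94.9% identical, and 16.0% of the 100-base windows of C4b occurred in C4a, so reads may have been split between them. An annotated long noncoding RNA overlaps C4b on the opposite strand. C4b was highest in FAPs in 3 libraries, in macrophages in 2 and in adipocytes in 1. In adipocytes it stood at 646 and 594 CPM in young SAT, 359 and 307 CPM in old SAT, and 415 and 346 CPM in VAT. Both young libraries lay above all 4 older ones. In FAPs it stood at 384 and 1319 CPM, 471 and 221 CPM, and 171 and 761 CPM, with overlap between all groups. In resident macrophages C4b stood at 1583 to 2168 CPM over 4 libraries, against at most 41.3 CPM in lipid-associated macrophages over 3. T cells had 11.2 to 29.1 CPM.

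Cfb encodes factor B, the protease precursor of the alternative route that factor D cleaves. Its position, chr17:35074852-35081559 on the minus strand, overlaps the annotated gene Gm20547 on the same strand and Nelfe on the opposite one, so its counts are uncertain. It was scarce, and its highest class was macrophages in 3 libraries, endothelial nuclei in 2 and adipocytes in 1. In macrophages it had 15 and 48 UMIs in SAT at 2 months, 0 and 5 in SAT at 24 months, and 16 and 9 in VAT. In CPM the young SAT libraries, at 43.9 and 93.9, lay above the old SAT libraries. The count of 0 among 133481 UMIs allows up to 22.5 CPM by the limit of 3 counts. Adipocytes held 4.64 to 11.6 CPM, and T cells at most 2.50 CPM.

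Cfd encodes factor D, the protease that cleaves factor B. It lies at chr10:79726668-79728496 on the plus strand. In adipocytes Cfd stood at 7854 and 5986 CPM in young SAT, 947 and 2254 CPM in old SAT, and 968 and 1580 CPM in VAT at 24 months. Both young libraries lay above all 4 older ones. After thinning to 1000 UMIs, Cfd was detected in 96.3% and 93.4% of young SAT adipocytes, 41.6% and 63.6% of old SAT adipocytes, and 47.4% and 52.5% of VAT adipocytes. In T cells the thinned shares were 25.9% and 19.3% at 2 months and 2.51% and 9.39% at 24 months in SAT, given as the level in a class that is not known to make Cfd. The median depth of a library was 1536 to 2274 UMIs in adipocytes and 1249 to 1510 UMIs in T cells. Adipocytes gave 49.7% to 82.4% of the Cfd UMIs of a library.

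The age comparison in SAT asked how the transcripts of each cell class differ between 2 and 24 months. Counts summed per library and class were tested with edgeR's quasi-likelihood test over all genes, with Benjamini-Hochberg adjustment, and genes with an adjusted p below 0.05 count as called. The p-values measure the spread between libraries, 2 per group, and the self-test on simulated adipocyte counts recovered 21.6% of genes changed 2-fold and 88.7% of genes changed 4-fold. The simulated counts had the same dispersion for every gene and not the spread of the real libraries, so these rates hold for that setting only. In adipocytes, 7 of the 9 genes passed the filter on low counts and 2 were called, C3 and Cfd, both lower at 24 months. Of all 12932 genes tested there, 13.8% were called, and 7.32% were called lower. The median log2 fold change was -0.74 over the 7 genes and -0.0021 over all genes tested.

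C3 in adipocytes stood at 243 and 242 CPM at 2 months and 26.4 and 69.2 CPM at 24 months, with the young libraries above both old ones. It fell by 2.13 on the log2 scale (SE 0.34, edgeR adjusted p = 0.0023). With a library left out the value ran from -2.96 to -1.60. The T cells of these libraries had 27.2 and 31.9 CPM at 2 months and 7.49 and 32.4 CPM at 24 months. Cfd fell by 1.97 on the log2 scale (SE 0.42, edgeR adjusted p = 0.0099). Without SAT 2 months replicate 1 its adjusted p was 0.096 and without SAT 2 months replicate 2 it was 0.0503, at -1.72 and -2.14 on the log2 scale. The log2 fold change of C4b was -0.74 (SE 0.26, edgeR adjusted p = 0.082), which did not pass. C4b was called in 3 of 13 alternatives. Adipoq, which encodes adiponectin and marks adipocytes, stood at 1179 and 1061 CPM in young SAT adipocytes and 430 and 1407 CPM in old ones. Its replicates overlapped across ages, unlike those of C3 and Cfd. The adipocyte class pooled several clusters, and Cfd was among the leading genes of a cluster of 391 nuclei. Levels by cluster were not compared, so a shift of the mix with age and a change within a type cannot be told apart.

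Markers of other cells in the adipocyte class also differed between ages. The summed FAP markers stood at 1655 to 2199 CPM in young SAT adipocytes and 2072 to 4801 CPM in old ones, with all 9 markers detected in every library and with overlap between the ages. The 10 macrophage markers summed to 286 to 359 CPM and 110 to 176 CPM. The T cell markers summed to 286 to 512 CPM and 33.2 to 59.7 CPM. The endothelial, epithelial and mesothelial markers were lower as well, at 85.9 to 126, 103 to 165 and 53.6 to 63.3 CPM and then 47.9 to 65.9, 49.3 to 88.2 and 25.0 to 33.6 CPM. The part of this RNA in the difference of C3 was not tested.

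**Figure D3:**
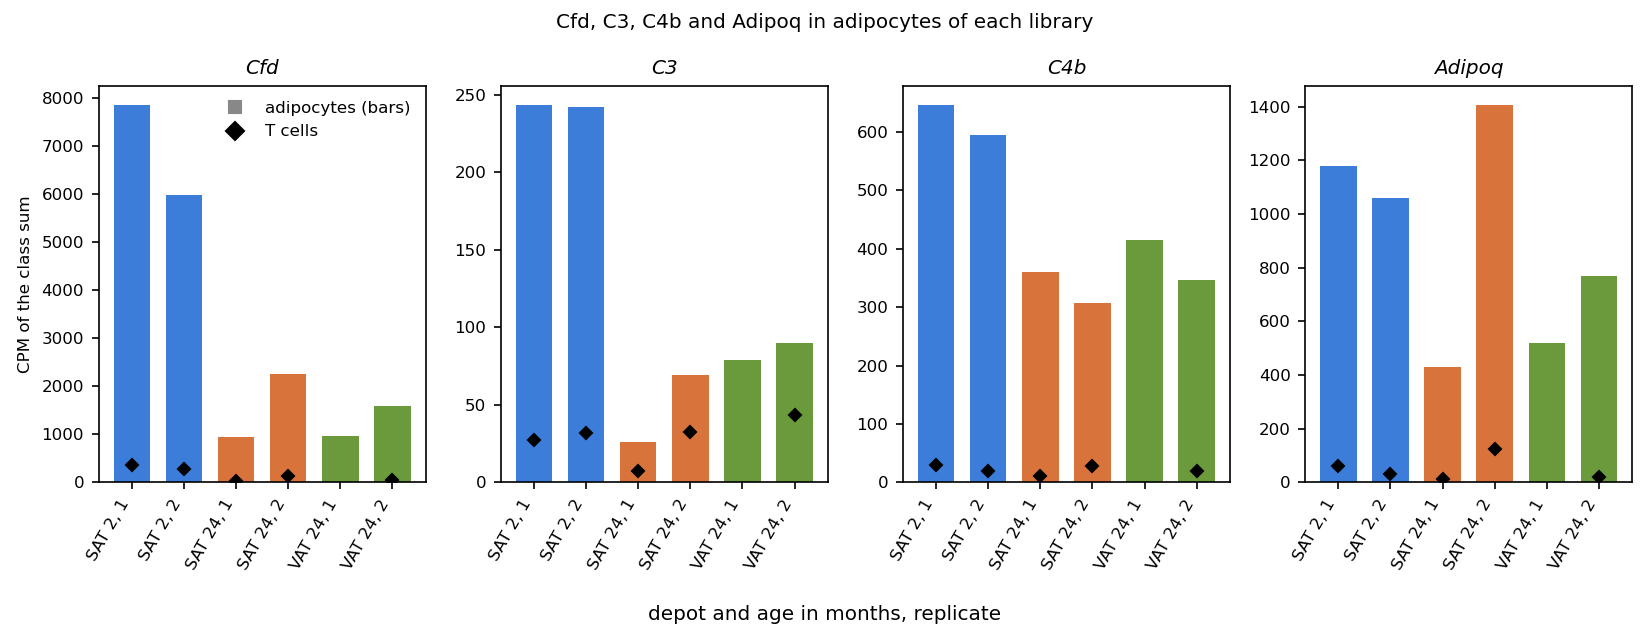
CPM (vertical axes, linear from 0) of Cfd, C3, C4b and Adipoq summed over the adipocyte nuclei of each library (bars, coloured by group) and over its T cell nuclei (black diamonds, none for VAT replicate 1, which had too few). Cfd, C3 and C4b are higher in both SAT 2 months libraries than in every older library, whereas Adipoq is highest in SAT 24 months replicate 2 at 1407 CPM.

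The promoters of C3 (chr17:57228137-57228386, GRCm38.p6, minus strand) and Cfd (chr10:79890603-79890852, plus strand), from RefSeq, are shown as the 250 bases before the annotated starts of the 2 genes called in adipocytes, 5′ to 3′ on the gene's strand. Capitals mark TTGCNNAA, letters of the site of the C/EBP factors known from adipocyte differentiation, searched on both strands:
C3: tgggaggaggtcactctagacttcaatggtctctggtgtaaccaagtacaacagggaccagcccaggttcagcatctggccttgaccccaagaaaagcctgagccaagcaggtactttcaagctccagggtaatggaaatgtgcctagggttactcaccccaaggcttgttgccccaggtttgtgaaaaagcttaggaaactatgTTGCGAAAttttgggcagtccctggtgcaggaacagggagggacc
Cfd: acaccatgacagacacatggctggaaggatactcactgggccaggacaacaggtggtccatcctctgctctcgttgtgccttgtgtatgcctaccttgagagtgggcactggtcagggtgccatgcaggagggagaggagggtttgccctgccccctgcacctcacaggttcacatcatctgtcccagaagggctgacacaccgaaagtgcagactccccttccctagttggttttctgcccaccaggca
The letters stood 45 to 38 bases before the start of C3 and were not in the window of Cfd, and 9.57% of all promoters of that length held them.

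Cfd UMIs were also found in nuclei of other classes. In T cells Cfd stood at 368 and 271 CPM at 2 months and 31.2 and 133 CPM at 24 months, with no overlap. It fell by 2.23 on the log2 scale (SE 0.36, edgeR adjusted p = 0.00014) and was the 1 of 6 tested complement genes called there, where 14.5% of 12074 genes were called and 6% were called lower. With DESeq2 the value was -1.93 with an adjusted p of 0.24, the highest over its 13 alternatives, and the lowest was 6.1e-16. The age effect on Cfd in T cells differed from that in adipocytes by -0.31 on the log2 scale (SE 0.43, edgeR adjusted p = 0.78), in a fit chosen after seeing the data, where 9.4% of 15225 genes were called. A p of this size does not show that the effects were alike. In SAT the lymphocytes, T and B cells together, held 4.73% to 8.10% of the adipocyte level of Cfd and 3.14% to 9.90% of that of Adipoq.

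The ratio of Cfd to Adipoq UMIs was compared across classes within a library. In adipocytes it was 6.66 and 5.64 in SAT at 2 months, 2.21 and 1.60 in SAT at 24 months, and 1.86 and 2.05 in VAT. In T cells it was 6.19 and 8.37 at 2 months and 2.78 and 1.06 at 24 months in SAT. In each of the 7 classes with values at both ages, each SAT 2 months library had a higher ratio than each SAT 24 months library with more than 3 Adipoq UMIs in the class. SAT 24 months replicate 1 fell short of that in FAPs, with 9 Cfd UMIs and 1 Adipoq UMI, and in macrophages, with 10 and 3. All 9 adipocyte markers were detected in T cells, and their sum was 341 to 444 CPM at 2 months and 331 to 767 CPM at 24 months. The part of adipocyte RNA in the Cfd of other classes was not tested.

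**Figure D4:**
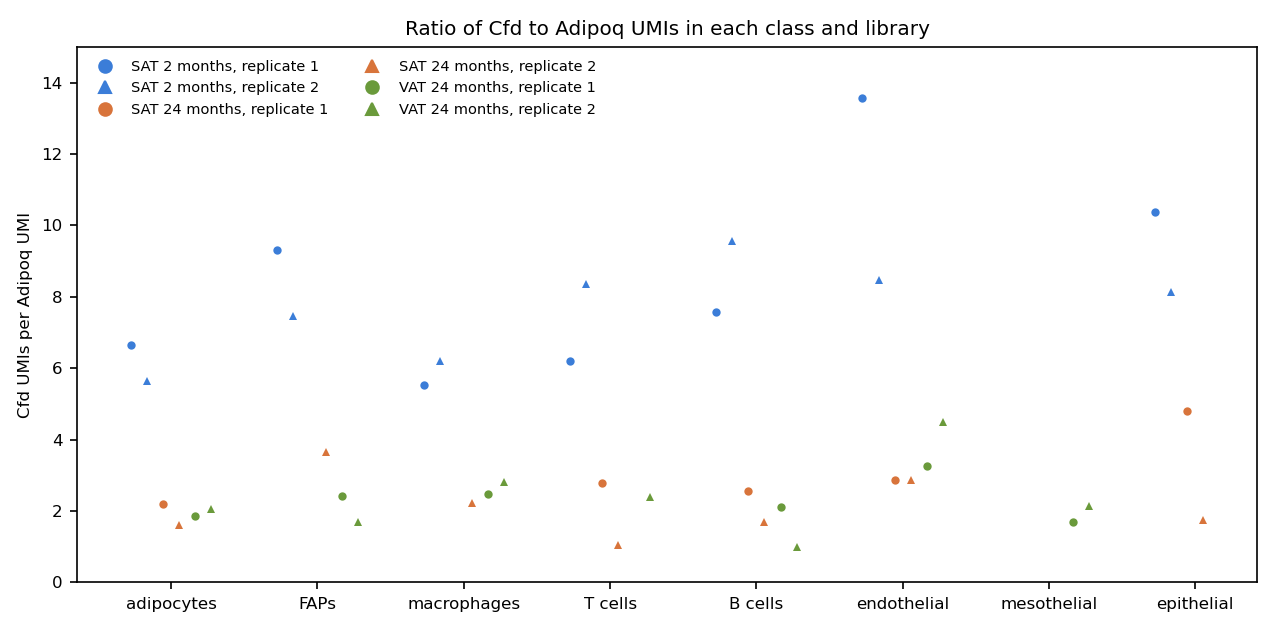
Cfd UMIs per Adipoq UMI (vertical axis, linear from 0) in 8 cell classes, 1 point per library with more than 3 Adipoq UMIs in the class, coloured by group and shaped by replicate. The SAT 2 months libraries lie between 5.54 and 13.6 in all classes plotted, and the older libraries of both depots between 1.00 and 4.80.

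Endothelial nuclei carried Cfd as well, at 4054 and 1380 CPM in young SAT, 539 and 4527 CPM in old SAT, and 1756 and 601 CPM in VAT. Adipoq stood beside it at 299, 163, 189, 1584, 540 and 134 CPM in the same order of libraries. In SAT 24 months replicate 2, the library with the most Cfd in this class, the adipocyte markers summed to 7349 CPM and the FAP markers to 8980 CPM, above the 3346 CPM of the endothelial markers that named the class. In VAT replicate 1 the adipocyte markers summed to 5359 CPM against 4615 CPM of endothelial markers. In the other 4 libraries the endothelial markers had the highest of these sums. Endothelial nuclei without a UMI of Adipoq or Plin1 had Cfd at 793 and 519 CPM in young SAT, 232 and 903 CPM in old SAT, and 582 and 28.4 CPM in VAT. Nuclei with such a UMI, enough in 4 libraries, had 1182 and 5232 CPM in old SAT and 2537 and 4836 CPM in VAT, more than those without in each library, and were deeper, with medians of 1662 to 2584 against 1312 to 1703 UMIs. Macrophages split in this way had 373 CPM with and 475 CPM without in SAT 2 months replicate 1, and more with than without in the other 3 libraries with enough nuclei of both kinds. This split was made after the data were seen. The age difference of Cfd in endothelial nuclei was 0.27 on the log2 scale (SE 0.96, edgeR adjusted p = 0.94), and it was negative under some settings.

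Epithelial nuclei, marked by Epcam, Krt8 and Elf5, passed the marker check only in SAT, the depot that in female mice holds mammary gland. The clusters so named also held 20 and 115 VAT nuclei, which were not kept, since the mean log2 fold of the markers over other nuclei was 0.033 and 0.63 where 1 was required, though 6 of 9 markers passed 2-fold in replicate 2. C4b stood there at 52.9 and 36.0 CPM at 2 months and 156 and 148 CPM at 24 months, with no overlap. It rose by 1.72 on the log2 scale (SE 0.23, edgeR adjusted p = 0.00046), the 1 of 6 tested complement genes called there, where 8.04% of 11938 genes were called and 4% were called higher. The class is mixed. Before the marker check it pooled 805 nuclei led by genes such as Areg, Prlr and Pgr with clusters of 440 and 279 nuclei. The latter were led by genes such as Csn3, Ltf and Kit. Levels by cluster were not compared, so a shift of this mix with age and a change within a type cannot be told apart. After thinning, C4b was detected in 4.03% and 4.42% of young epithelial nuclei and 12.0% and 12.8% of old ones, against 1.05% to 2.30% of T cells. C3 stood at 22.2 and 33.1 CPM and then 38.9 and 91.0 CPM, a log2 fold change of 1.28 (SE 0.37) with an edgeR adjusted p just above 0.05, so it was not called. It was called in 6 of 13 alternatives. In T cells of the same 4 libraries C3 stood at 27.2, 31.9, 7.49 and 32.4 CPM. Cfd had a log2 fold change of -1.74 (SE 0.50, edgeR adjusted p = 0.0513) and was also called in 6 of 13 alternatives.

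The age effect in epithelial nuclei differed from that in adipocytes for C4b and C3. In 1 fit over both classes with the library as a block, the effect on C4b was 2.44 higher on the log2 scale in epithelial nuclei (SE 0.33, edgeR adjusted p = 2.8e-05), and that on C3 was 3.42 higher (SE 0.33, edgeR adjusted p = 3.6e-07). These were 2 of the 7 complement genes tested, and 8.21% of 14056 genes were called. The adipocyte markers in epithelial nuclei summed to 444 to 520 CPM at 2 months and 301 to 908 CPM at 24 months, and the FAP markers to 618 to 740 CPM and 316 to 832 CPM. The macrophage markers there summed to 63.3 to 81.9 CPM at 2 months and 65.2 to 96.3 CPM at 24 months. The part of RNA from other cells in these differences was not tested.

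In the other classes no complement gene was called between 24 and 2 months in SAT. In macrophages all 9 were tested and 0 were called by edgeR or by DESeq2, with 2 at an unadjusted p under 0.05, and 0% of 8162 genes were called. Their log2 fold changes ran from -2.96 for Cfb (SE 0.79, edgeR adjusted p = 0.25) and -1.30 for C3 (SE 0.51, adjusted p = 0.35) to 0.88 for C3ar1 and 1.03 for C5ar1. Those of C1qa, C1qb and C1qc were -0.23, 0.24 and 0.12, with SEs of 0.50 to 0.59. In FAPs 3 were tested, 0 were called by either tool and 0 had an unadjusted p under 0.05, at -0.52 for C3 (SE 0.57), -1.31 for C4b (SE 0.82) and -0.42 for Cfd (SE 0.94), and 0% of 8269 genes were called.

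In endothelial nuclei 0 of 6 were called by edgeR or DESeq2, with 2 at an unadjusted p under 0.05, where 0.0251% of 7980 genes were called. These 2 were C1qb at 2.40 (SE 0.90, edgeR adjusted p = 0.34) and C3 at -2.06 (SE 0.73, edgeR adjusted p = 0.34). With no batch correction C3 was called, at -4.26 (edgeR adjusted p = 0.020), where 2 of the 9 genes were tested and the old SAT libraries kept 57 and 35 endothelial nuclei against 104 and 643. The macrophage markers in endothelial nuclei summed to 314 to 413 CPM at 2 months and 382 to 799 CPM at 24 months. In dendritic cells 0 of 4 were called by either tool, with 2 at an unadjusted p under 0.05, against 2.58% of 10599 genes, and Cfd stood at -1.23 (SE 0.36, edgeR adjusted p = 0.068) and was called in 7 of 13 alternatives. Over immune nuclei and over all nuclei 0 of 9 were called by either tool, with 0 at an unadjusted p under 0.05, against 0% of genes by edgeR and 164 and 292 genes by DESeq2. With no filter on low counts, 6 of 9 were called higher at 24 months over immune nuclei, C1qa, C1qb, C1qc, C4b, C3ar1 and C5ar1, with log2 fold changes up to the 2.73 of C5ar1, where 2.17% of 37098 genes were called. Macrophages were 180 of 2695 and 280 of 4331 immune nuclei at 2 months and 77 of 954 and 246 of 724 at 24 months, so more macrophages and more RNA per macrophage cannot be told apart there. In B cells 0 of 4 were called by either tool, with 0 at an unadjusted p under 0.05, against 1.5% of 8588 genes. Among the alternatives Cfd was called lower in 3 and C3 in 1. The age effect on Cfb was 3.81 lower on the log2 scale in macrophages than in adipocytes (edgeR adjusted p = 0.044, SE 1.00), the 1 of 9 called, where 2.79% of 10776 genes were called. It rests on the few Cfb UMIs of SAT macrophages given above, and its adjusted p was 0.097 with the replicate block. In FAPs, endothelial nuclei and B cells edgeR called 0 complement genes for a difference of the age effect from adipocytes, in fits with 0.676%, 0.299% and 2.87% of genes called, which does not show that the effects were alike. At an unadjusted p under 0.05 stood 1 in FAPs, 1 in endothelial nuclei and 0 in B cells, and DESeq2 called 0. These were C3 in FAPs at 1.85 (SE 0.54, edgeR adjusted p = 0.17, and 0.0046 with only the 4 SAT libraries) and C1qb in endothelial nuclei at 3.69 (SE 1.07, edgeR adjusted p = 0.14).

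The depot comparison at 24 months asked where VAT and SAT differ, and edgeR called 0 complement genes in any class in the main fit. With no filter on low counts it called 1 of 9 over all nuclei, higher in VAT, where 1034 of 41598 genes were called. In adipocytes 7 were tested with 2 at an unadjusted p under 0.05 and 0 called by edgeR or DESeq2, against 0.139% of 12932 genes. C3 stood at 26.4 and 69.2 CPM in SAT and 78.9 and 89.9 CPM in VAT adipocytes, a log2 fold change of 0.77 (SE 0.35, edgeR adjusted p = 0.73). Cfd had -0.31 (SE 0.41) and C4b 0.22 (SE 0.26), and without VAT replicate 2 they had -0.66 and 0.37. In macrophages 9 were tested with 2 at an unadjusted p under 0.05, against 0.0123% of 8162 genes, and in FAPs 3 were tested with 1, against 0% of genes. In B cells 0 of 4 and in endothelial nuclei 0 of 6 had an unadjusted p under 0.05, against 0% of genes in each. DESeq2 called 0 complement genes in these classes.

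C3 had a positive VAT minus SAT difference in each of the 5 separate classes with a fit. In FAPs it was 1.59 (SE 0.58, edgeR adjusted p = 0.81), in macrophages 1.69 (SE 0.51, adjusted p = 0.99), in B cells 1.80 (SE 0.88) and in endothelial nuclei 1.27 (SE 0.71). In each class both VAT libraries lay above both SAT libraries. Without VAT replicate 2 these values were 1.31, 1.90, 3.10 and 1.72, and 0.72 in adipocytes, with adjusted p from 0.12 to 1. Over all nuclei of a library the difference was 2.24 (SE 0.42, edgeR adjusted p = 0.28, against 0.0138% of 21729 genes called), and over immune nuclei 2.83 (SE 0.59, adjusted p = 0.20). Without VAT replicate 2 they were 2.50 (adjusted p = 0.040) and 3.49 (adjusted p = 0.014), and with DESeq2 2.30 (adjusted p = 0.00098) and 2.89 (adjusted p = 0.0015). Over all alternatives the adjusted p for all nuclei ran from 0.00053 to 0.86. Mesothelial nuclei, which hold C3, were kept in VAT only. T and B cells together had C3 at 18.7 and 21.6 CPM in old SAT, 275 CPM in VAT replicate 1, from 17 UMIs in 35 nuclei, and 50.4 CPM in VAT replicate 2, from 858 nuclei. The part of mesothelial RNA in the C3 of other classes was not tested.

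**Figure D5:**
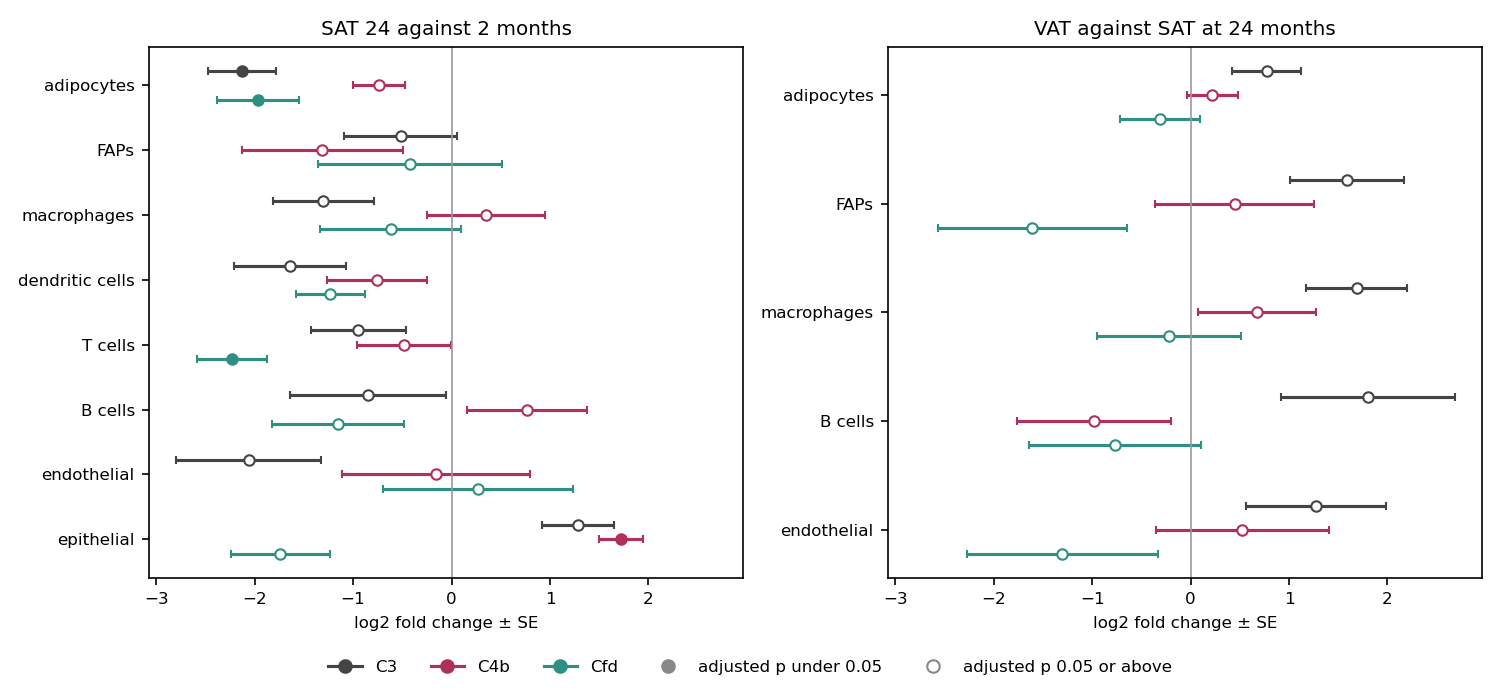
Log2 fold change (horizontal axes, error bars 1 SE, edgeR) of C3, C4b and Cfd in each class with a fit, for SAT 24 against 2 months (left) and VAT against SAT at 24 months (right); filled points have an adjusted p under 0.05. At left C3 and Cfd in adipocytes, Cfd in T cells and C4b in epithelial nuclei are filled, and at right no point is filled while all 5 C3 points lie above 0.

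Of 47 other complement genes on the list, 20 were tested in adipocytes, and with age 2 rose and 3 fell, against 13.8% of all genes called. The risers were Serping1, the inhibitor of the C1 proteases, at 2.11 (SE 0.37, edgeR adjusted p = 0.0035), and Cd59a, which blocks the membrane attack complex, at 2.08 (SE 0.27, adjusted p = 0.00058). Itgb2, the integrin chain of the leukocyte receptors for C3 fragments, fell by 3.32 (SE 0.57), Cr2, complement receptor 2 of B cells and follicular dendritic cells, by 2.11 (SE 0.64), and Lrp1, an endocytic receptor, by 1.62 (SE 0.27), all on the log2 scale. The B cell markers in adipocytes summed to 227 to 348 CPM at 2 months and 30.9 to 61.1 CPM at 24 months, and the T cell markers were lower too, as given above. The part of RNA from other cells in these differences was not tested.

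In epithelial nuclei 16 were tested, with 2 higher and 3 lower against 8.04% of all genes. Csmd1, a membrane regulator of complement, rose by 2.83 on the log2 scale (SE 0.22, edgeR adjusted p = 7.4e-06), and Clu, clusterin, a soluble inhibitor of the terminal complex, rose by 1.63 (SE 0.21, adjusted p = 0.0004). Itgb2, Cr2 and Lrp1 fell by 2.80, 2.05 and 0.90. The T cell markers in epithelial nuclei summed to 233 to 401 CPM at 2 months and 51.4 to 67.2 CPM at 24 months. In T cells 16 were tested, with 1 higher and 5 lower against 14.5% of all genes. The B cell markers in T cells summed to 303 to 337 CPM at 2 months and 82.9 to 102 CPM at 24 months. The largest were Clu at -2.48, Cr2 at -1.92, Cd93 at 1.90, Cd55, a decay accelerator of the C3 convertase, at -1.82, and Lrp1 at -1.44. Between depots 1 of 20 was called in adipocytes, against 0.139% of 12932 genes. It was Colec12, a collectin family scavenger receptor, 1.97 higher in VAT on the log2 scale (SE 0.31, edgeR adjusted p = 0.031), and 2.28 higher without VAT replicate 2. With only the 4 libraries of the comparison in the fit, 0 of 13601 genes were called, so Colec12 did not pass there. In every other class and comparison 0 of the list were called by edgeR.

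The genes most like each complement gene over the 74 profiles, among 9399 genes, followed the classes above. For C1qa they were Ccl6, Pf4 and Csf1r (Pearson r 0.93, 0.91 and 0.91), for C1qb Fcgr3, Lyz2 and Csf1r (0.92 each), and for C1qc Ccl6, Pf4 and Mrc1 (0.93, 0.93 and 0.92). C3ar1 was most like Fcgr3, Ms4a6d and Pf4 (0.93, 0.91 and 0.91), and C5ar1 like Fcgr3, Pf4 and Ccl6 (0.95, 0.93 and 0.92). C3 was nearest to Igfbp6, Serping1 and Gabra3 (0.87, 0.86 and 0.85), and Cfd to Pck1, Ces1d and Cyp2e1 (0.88, 0.83 and 0.82). C4b, with Cd302, Xdh and Fgfr1 (0.73, 0.72 and 0.72), and Cfb, with Ccl8, Slfn4 and Lamp1 (0.64, 0.62 and 0.61), had lower values. Between the complement genes r ran from 0.95 to 0.98 among the C1q chains, was 0.54 for C3 with C4b and 0.10 for C3 with Cfd. The profiles share libraries and depth, so these are descriptions.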

How the data were processed

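Nuclei were loaded by the authors on a Singleron GEXSCOPE chip and sequenced as 150 bp paired reads on an Illumina instrument. The authors counted UMIs with Celescope against GRCm39, with the release not given in the sources used here, and deposited raw UMI counts per gene and barcode, with at least 500 UMIs per barcode. Nuclei with more than 500 genes, more than 1000 UMIs and under 15% mitochondrial UMIs were kept here, as in the study. Doublets were kept, since Scrublet (scanpy 1.11.5) marked 0.0519% to 0.562% and so did not work. Nuclei were clustered (1000 variable genes, 30 components, a Harmony-type correction by library, Leiden, resolution 2) and named from marker lists. Sums of UMI counts over the nuclei of a class in each library were tested with edgeR 4.0.16 (TMM, filterByExpr, quasi-likelihood, all 3 groups in 1 fit, two-sided), with DESeq2 1.42.0 as an alternative. The fit was tested on simulated data. The study took tissue from 2 mice per age, and the labels do not tie a library to a mouse, so p-values measure the spread between libraries. Intervals and the limit of 3 counts for a count of 0 cover counting error only. Overlap and promoter letters came from GENCODE M39 and RefSeq tables. The genes and lists were chosen with earlier results of these data known; named were the 9 genes in each class, at most 5 other called complement genes per class and comparison by size of change, and the 3 genes most like each of the 9. Other choices tried were scaling, filter, libraries in the fit, block, leaving out each library, clustering, doublets, and mitochondrial share under 5%.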

Additional observations from a re-analysis of the deposited data

Results flagged for a closer look

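The age effect in SAT differed between classes for 3 results by a test of the difference itself. Relative to adipocytes, the log2 age effect was 3.42 higher for C3 and 2.44 higher for C4b in epithelial nuclei, and for Cfb in macrophages it was -3.81 on the same scale. In 5 alternatives the C3 difference ran from 3.23 to 3.64 and the C4b difference from 2.26 to 2.68, and all of them passed. The Cfb difference passed in 3 of the 4 alternatives that gave an adjusted p, and not with the replicate block.

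An unnamed cluster of 331 nuclei, outside the named classes compared above but part of the sums over all nuclei, held C3 at 2291 CPM and C4b at 1211 CPM, above the T cells of the same libraries. C3 stood at 2005 and 2869 CPM in young SAT, 1820 and 2306 CPM in old SAT, and 1854 CPM in VAT replicate 2, in 31 to 124 nuclei each, and VAT replicate 1 had too few. C4b stood at 1130, 1472, 1149, 1523 and 603 CPM in these libraries, against 11.2 to 29.1 CPM in their T cells. Its leading genes were Pcdh15, Csmd1, Ccl21a, Cxcl13, Ccl19, Cr2, Syt1 and Clu, where Ccl21a, Ccl19 and Cxcl13 are chemokines of lymphoid stroma and Cr2, Csmd1 and Clu are complement genes. The cluster was chosen after its values were seen, as the unnamed cluster of at least 100 nuclei with the most C3 per UMI. C1qb had 7 UMIs in it, and C3ar1 had 0.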

How the results depend on the processing

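The 9 complement genes called with age in SAT, summed over 8 separate classes, gave 4 calls, with 6.09% of all tests called. They gave 9 with no filter on low counts (2.85%), 8 with the replicate block (6.47%), 7 with no batch correction (6.39%), 9 at under 5% mitochondrial UMIs (7.22%), 3 with DESeq2 (3.79%) and 3 to 9 when a library was left out (1.53% to 5.95%), a lone library being assumed to vary like the others. C3 in adipocytes and C4b in epithelial nuclei were called under all 13 alternatives, of which the removal of doublets changed no adipocyte call and tested nothing there. Cfd in adipocytes was lost without either SAT 2 months library (range without a library -2.63 to -1.41), and Cfd in T cells with DESeq2 (-1.93). C3 in endothelial nuclei passed with no batch correction, and in B cells Cfd passed with no filter, without SAT 24 months replicate 2 and under 5% mitochondrial UMIs and C3 without SAT 24 months replicate 1. C3 and Cfd in epithelial nuclei passed in 6 and Cfd in dendritic cells in 7 of 13 alternatives. With no filter 6 complement genes passed over immune nuclei with age, and Cfb passed in macrophages with age, at -3.01. C4b in adipocytes passed with library-size scaling, the replicate block and under 5% mitochondrial UMIs. Library-size scaling moved the median log2 fold change of all genes with age in adipocytes from -0.0021 to -0.17. For the depots the count of 0 ran from 0 to 1 without a library (Cfd in FAPs without VAT replicate 1, -3.22). At resolution 1.0 it was 1, C3 in dendritic cells, a class with a depot fit only at that setting. Other complement genes called, summed over both comparisons and the separate classes, numbered 17, and 33 without the filter. In the fits that gave the 17, from 0.139% to 14.5% of all genes were called. The fits without the filter test more genes, so the 2 counts are not over the same tests. The thinned share of adipocytes with C4b was 27.7%, and 40.5% unthinned.

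Over all genes with age, calls by edgeR and by DESeq2 numbered 1752 and 822 in T cells, 960 and 593 in epithelial nuclei, 273 and 89 in dendritic cells, 0 and 26 in macrophages and 0 and 19 in FAPs. In adipocytes they numbered 1789, against 574 and 373 without SAT 2 months replicate 1 and 2. Between depots over all nuclei they numbered 3, and 522 with DESeq2.

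The numbers in the labels were not shown to pair libraries: deviations of same-numbered libraries correlated at -0.48 to 0.09. With the replicate block, C4b in adipocytes, C3 and Cfd in epithelial nuclei and Cfd in dendritic cells also passed. Calls in adipocytes with age went from 1789 to 1973 and between depots from 18 to 23.

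Values of genes that were not called turned sign, in macrophages with age: C1qc with library-size scaling (-0.000919) and resolution 1.0 (-0.068), C1qb, C1qc, C4b, C3ar1 and C5ar1 with no batch correction (-0.85, -0.88, -0.90, -0.40 and -0.31), and Cfd at resolution 1.0 (0.25). Cfd in macrophages between depots was 0.13 under 5% mitochondrial UMIs, and C4b in FAPs was -0.016 with the replicate block. Cfd in endothelial nuclei with age was -0.13 with library-size scaling, -2.79 with no batch correction and -1.27 under 5% mitochondrial UMIs.

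With a library left out, the ranges with age in macrophages were -1.22 to 0.32 for C1qa, -0.97 to 0.85 for C1qb, -0.87 to 0.67 for C1qc, -0.49 to 0.83 for C4b, -2.46 to 0.059 for Cfd, -0.59 to 1.45 for C3ar1 and -0.50 to 1.67 for C5ar1. Between depots they were -0.66 to 0.88, -1.25 to 0.86, -1.43 to 0.67, -0.66 to 1.52, -1.86 to 1.63, -1.50 to 0.95 and -2.08 to 1.09 in that order. Further ranges were -0.83 to 0.36 for Cfd in adipocytes between depots, -2.62 to 0.67 with age and -3.22 to 0.60 between depots for Cfd in FAPs, -0.90 to 1.16 for C4b in FAPs between depots, -1.87 to 0.11 for C3 in T cells with age and -2.20 to 1.33 for Cfd in endothelial nuclei with age. The causes were not tested.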
